A study of Danio rerio with 2 samples.

Results

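Endosomal sorting genes of the Vps, Chmp and sorting nexin families were followed in sorted Cldnk:GFP cells of rraga mutant and wild type zebrafish larvae. They were the rows of the authors' comparison whose gene name starts with vps, chmp or snx followed by a digit, with a level above 0. All 80 rows with such a name had a level above 0 and all had a fold and a p, so no row was lost to that requirement; they are 80 of 34326 rows and of 25757 genes with a fold. The name brings in a few genes of other work, such as vps72, which encodes a chaperone of a histone variant. Cells carrying GFP under the Cldnk promoter were sorted by flow cytometry from larvae of the TL strain 5 days after fertilization, and RNA from them was sequenced. That RNA held markers of pancreas and liver as well as of oligodendrocytes, as given below. The genotypes were rraga mutant and wild type, with 1 record each, and the labels say that a record combines 2 independent biological replicates. Both groups carried the same reporter, and the mutant allele is not named in the labels. rraga encodes RagA, a GTPase that recruits mTORC1 to the lysosome surface.

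The authors deposited a log2 fold of mutant over wild type, a p and a level for each gene. The level is the higher of the genotype means in an unnamed normalized unit, and neither genotype's own value nor any replicate is given. Whether the level is per transcript length is not given in the sources used here, so levels are not compared between genes as amounts. For the same reason they are only a rough guide to how firmly a gene was measured. An error was derived from each fold and p, as the standard error with which a normal test would give that p, and the 95% intervals below are built from it. Whether the authors' p carries the spread between replicates is not known, so the same holds for this error and these intervals. In bulk RNA of this kind, fewer cells of a type and less RNA per cell cannot be told apart.

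Proteins taken into a cell reach the endosome, where they are either sent back to the surface or the Golgi or passed on to the lysosome. The ESCRT complexes gather ubiquitin-tagged membrane proteins and pinch them off into vesicles inside the endosome, which are digested once the endosome fuses with a lysosome. Retromer and many sorting nexins retrieve proteins for reuse, and the CORVET and HOPS complexes tether early and late endosomes to their fusion partners. In rodent oligodendrocytes, the myelin protein PLP passes through late endosomes on its way to the myelin membrane.

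Most endosomal sorting genes had a higher value in rraga mutant than in wild type cells, but none had an authors' FDR p-value under 0.05. Of the 80 genes, 55 had a log2 fold above 0 and 25 below 0, or 68.8% higher, where 51% of all genes with a fold were higher. The median log2 fold was 0.45 for the endosomal sorting genes, a ratio of 1.37, against 0.02 for all genes and 0.15 for genes of level 10 or more. With the authors' FDR p-value under 0.05, 0 of the 80 genes were called, where 0.221% of all genes were, and the smallest FDR p-value among them was 0.198 for snx11 by the authors' deposited table. At an unadjusted p under 0.05 there were 11, or 13.8%, against 9.66% of all genes. Of these, 8 were higher in mutant cells, or 10% of members against 4.43% of all genes, and 3 were lower, or 3.75% against 5.24%. The 8 include a row of vps50, a gene whose other row had a fold of the other sign, as given below.

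**Figure D1:**
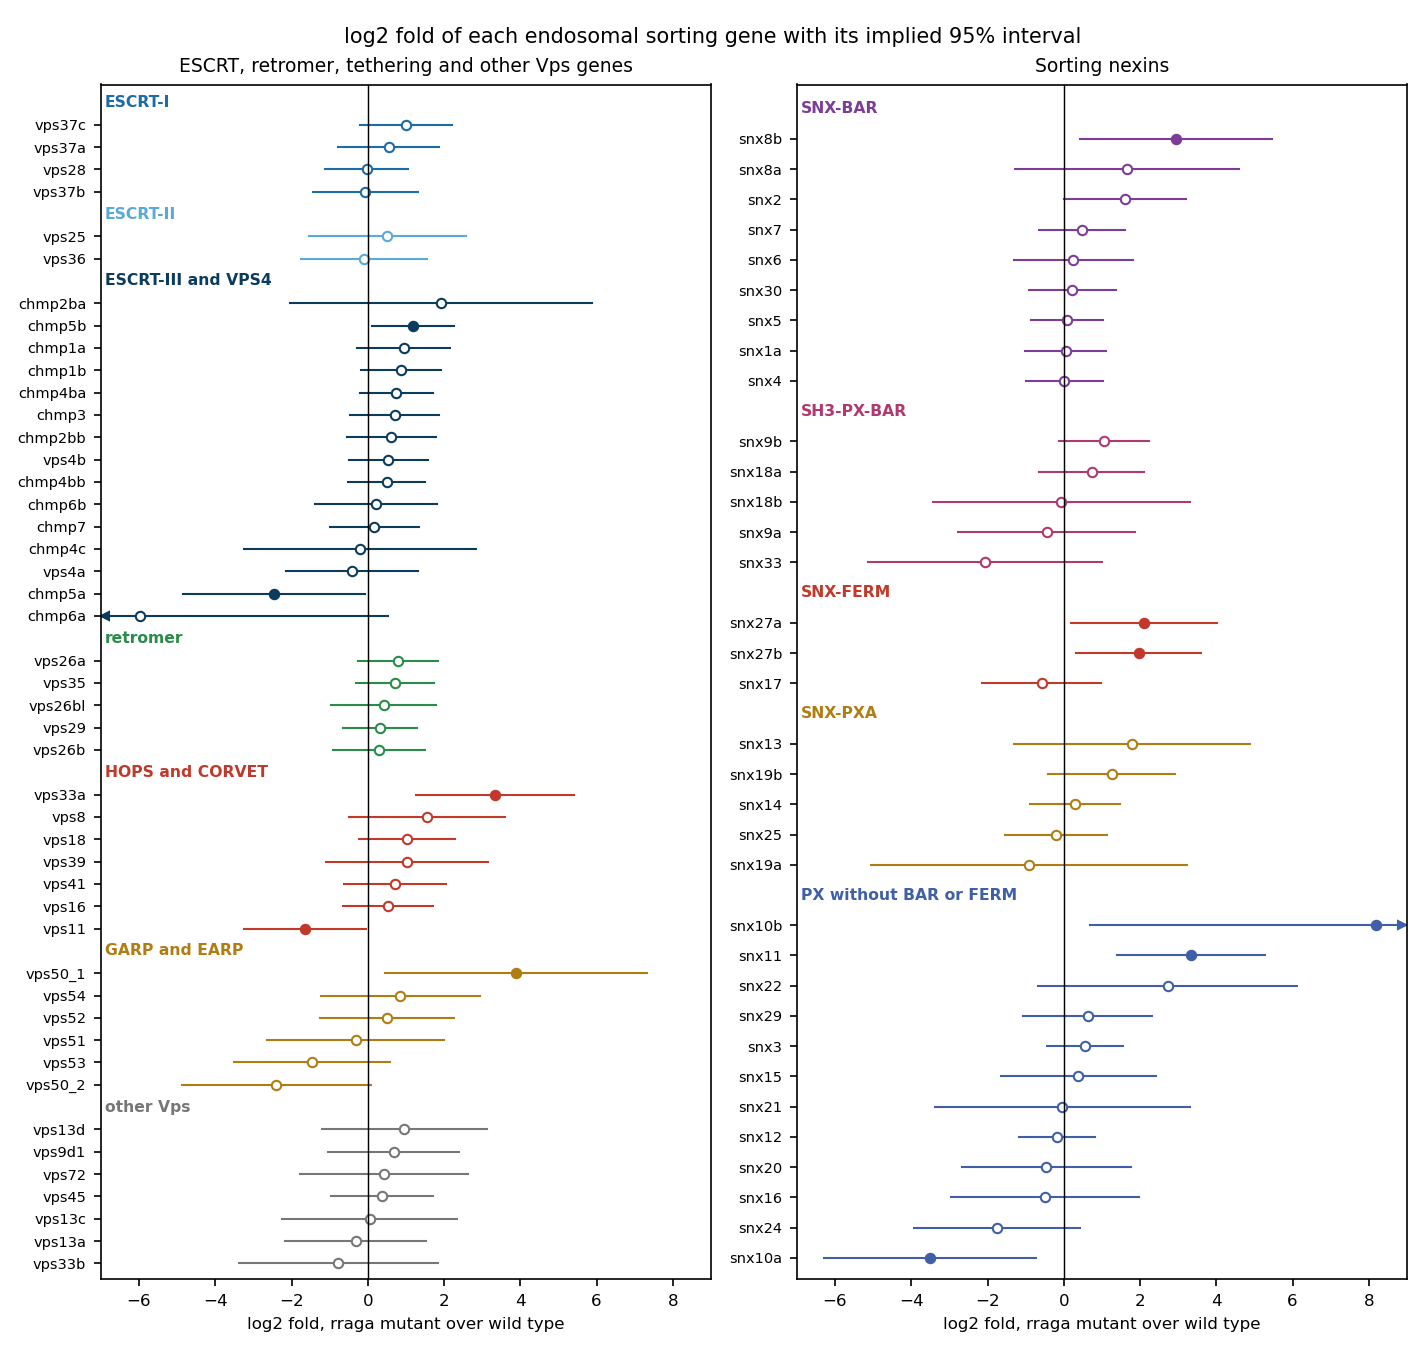
log2 fold of rraga mutant over wild type (horizontal axis) for each of the 80 endosomal sorting genes, grouped by complex (left) and sorting nexin subfamily (right). Points are the authors' folds, filled where their unadjusted p was under 0.05; lines are 95% intervals derived from the fold and p, with an arrow where one runs past the axis. The 5 retromer genes all sit right of 0, while HOPS and CORVET run from vps11 at -1.64 to vps33a at 3.32.

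The share of higher values was greater among the genes of higher level, as it was among all genes. Among the 40 members of level 10 or more, 33 were higher in mutant cells, against 62.3% of all genes of that level, and their median log2 fold was 0.51. At an unadjusted p under 0.05, there were 6 of these 40, or 15%, against 8.65% of all genes of that level. Of the 6, 4 were higher, where 5.94% of all such genes were, and 2 were lower, where 2.71% were. Among the 40 members under level 10, 22 were higher, against 47.7% of all genes under that level, with a median of 0.31. Among the 17 of level 30 or more the median was 0.31, and 14 were higher, against 64.7% of all genes of that level; their folds ran from -0.19 to 1.19. A level minimum acts on the higher genotype mean, so it is not independent of the fold and these shares are descriptions. The SD of the log2 fold across those 17 genes was 0.39, smaller than their median implied standard error of 0.55. At the median error of members of level 10 or more the 95% interval reached 1.18 to either side on the log2 scale, or 2.26-fold. A 5.18-fold difference was needed at that error for an authors' FDR p-value under 0.05. None of the 80 intervals lay within a 2-fold change either way, so no member is shown to be unaltered.

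**Figure D2:**
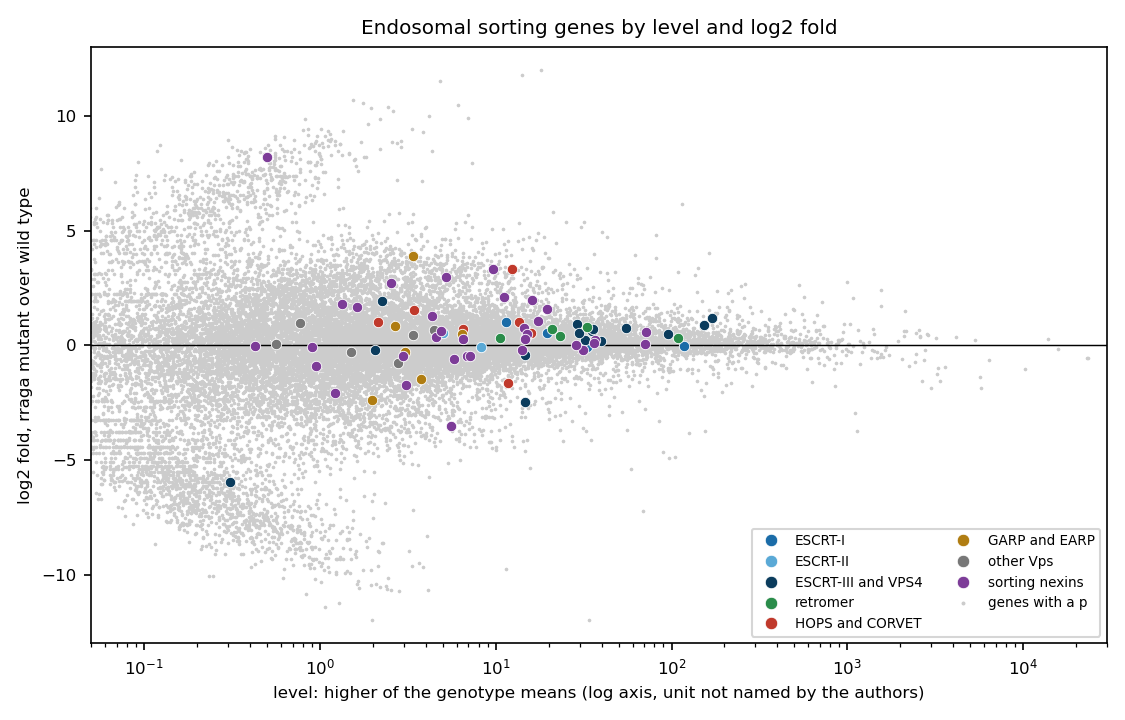
log2 fold of rraga mutant over wild type against the level, the higher of the genotype means, on a log axis. Coloured points are the 80 endosomal sorting genes by complex and grey points all genes with a fold; the 1935 genes under a level of 0.05 are not drawn. Members of level 30 or more lie between -0.19 and 1.19, and the widest folds, -5.98 for chmp6a and 8.20 for snx10b, belong to levels of 0.307 and 0.499.

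ESCRT-III subunits polymerize into the filaments that cut the necks of budding vesicles, and the VPS4 ATPase takes the filaments apart. Of the 15 ESCRT-III and VPS4 genes, 11 were higher in mutant cells, or 73.3%, with a median log2 fold of 0.53. Of all genes 51% were higher, and 62.3% of those of level 10 or more. chmp5b (ENSDARG00000103718, chromosome 7, 58744094 to 58751892, minus strand, GRCz11), which encodes a late-acting regulatory subunit, had a log2 fold of 1.19 (level 171) by the authors' deposited table. That is 2.29-fold higher in mutant cells, with an implied standard error of 0.55, an unadjusted p of 0.0289 and an FDR p-value of 0.662. It overlaps fastkd3 on the other strand, which had a log2 fold of -0.34 by the authors' deposited table, and whether counting used strand is not given in the sources used here. chmp1b, which helps bring VPS4 to the filament, had 0.87 at a level of 153, and chmp1a had 0.94 at 29.0 by the authors' deposited table. The main filament subunits chmp4bb and chmp4ba had log2 folds of 0.49 and 0.75 (p = 0.339 and 0.127) by the authors' deposited table. The third, chmp4c, had -0.21 at a level of 2.07. On the other strand chmp4ba overlaps atp5e, which had -0.08 at a level of 449 by the authors' deposited table. For chmp3, chmp2bb, chmp6b and chmp7, the folds were 0.70, 0.62, 0.20 and 0.17 on the log2 scale by the authors' deposited table. chmp2ba had 1.92 at a level of 2.26, and chmp6a -5.98 at 0.307, where the interval ran from -12.5 to 0.53, by the authors' deposited table. In all, 10 of the 12 ESCRT-III and VPS4 genes of level 10 or more were higher in mutant cells; the 2 that were lower were vps4a and chmp5a. vps4a had -0.41 and its partner vps4b 0.53 by the authors' deposited table, with overlapping intervals.

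chmp5a had a fold of the other sign from chmp5b. It lies on chromosome 2, 30911062 to 30917587, and had a log2 fold of -2.46 (level 14.6) by the authors' deposited table, 5.50-fold lower in mutant cells, with an unadjusted p of 0.0439 and an FDR p-value of 0.685. The implied interval ran from -4.85 to -0.07 for chmp5a and from 0.12 to 2.27 for chmp5b. That they do not overlap follows from their opposite signs and p under 0.05, from which the intervals are built. The difference between these copies was not tested, and how reads of like sequence were divided between them is not given in the sources used here.

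The upstream ESCRT complexes had 6 members by these names, with folds from -0.10 to 0.99 on the log2 scale and intervals that included 0. vps28, a core subunit of ESCRT-I, had a log2 fold of -0.03 (level 117) (interval -1.11 to 1.05) by the authors' deposited table. The vps37 paralogs, alternative ESCRT-I subunits, were at -0.07 for vps37b, 0.55 for vps37a and 0.99 for vps37c by the authors' deposited table. In ESCRT-II, which links ESCRT-I to ESCRT-III, vps25 had 0.51 and the ubiquitin-binding vps36 had -0.10 at levels of 5.00 and 8.25 by the authors' deposited table. On the other strand vps36 overlaps stoml3b, which had 2.32 at a level of 80.5 by the authors' deposited table. Over all 21 ESCRT genes 14 were higher, or 66.7%, and the median was 0.51. Of all genes 51% were higher, and of those of level 10 or more 62.3%, near the ESCRT share.

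Retromer, the coat that carries receptors back from endosomes, was higher in mutant cells in each of its 5 genes. Of all genes of level 10 or more, 62.3% were higher. The cargo-binding scaffold gene vps35 had a log2 fold of 0.71 (level 21.0, p = 0.172), and vps26a had 0.79 (level 33.2, p = 0.143) by the authors' deposited table. vps26b and vps26bl, which encode alternative forms of the same arrestin-like subunit, had 0.29 and 0.42 by the authors' deposited table. vps29, which retromer shares with the retriever complex, had 0.31 at a level of 108 by the authors' deposited table. The median was 0.42 and the range only 0.29 to 0.79, but each of the 5 intervals included 0. The vps35 gene overlaps orc6 on the other strand, which had -4.16 at a level of 2.39 by the authors' deposited table. vps26b, at a level of 10.6, overlaps thyn1 on the other strand, which had 0.13 at a level of 15.0 by the authors' deposited table.

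HOPS and CORVET, which share 4 core subunits, had folds of both signs in that core. vps33a (ENSDARG00000101116, chromosome 5, 68849453 to 68866497, plus strand), which encodes the SNARE-binding subunit, had a log2 fold of 3.32 (level 12.4) by the authors' deposited table. That is 10.02-fold higher in mutant cells, with an implied standard error of 1.06, an unadjusted p of 0.00164 and an FDR p-value of 0.280. A smaller p was found for 0.776% of all genes. The scaffold gene vps11 (ENSDARG00000036338, chromosome 10, 29864689 to 29882216, minus strand) was the 1 lower member, with a log2 fold of -1.64 (level 11.8) by the authors' deposited table. Its unadjusted p was 0.0442 and its FDR p-value 0.685. VPS11 is known in human genetics for a leukoencephalopathy with poor myelination. The implied intervals of these core subunits ran from 1.26 to 5.39 for vps33a and from -3.25 to -0.04 for vps11. Each interval is built from the gene's own p, so with opposite signs and both p under 0.05 they cannot overlap. The difference between vps33a and vps11 was not tested. The other core genes, vps18 and vps16, had log2 folds of 1.03 and 0.54 (p = 0.109 and 0.371) by the authors' deposited table. The HOPS subunits vps39 and vps41 had 1.02 and 0.71, and vps8 of CORVET had 1.55, at levels of 2.14, 6.51 and 3.42 by the authors' deposited table. On the other strand vps41 overlaps cdv3, which had 0.12 at a level of 119 by the authors' deposited table. Of the 7 genes of HOPS and CORVET 6 were higher, with a median of 1.02. Of all genes 51% were higher, and 62.3% of those of level 10 or more. vps33a overlaps eif2b1 on the other strand, which had a log2 fold of 0.48 (level 14.9) by the authors' deposited table; reads of the pair cannot be told apart if counting did not use strand.

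GARP and EARP, which tether endosome-derived vesicles at the Golgi and at recycling endosomes, were measured at low levels, from 1.99 to 6.46. Their shared subunit genes vps52, vps51 and vps53 had log2 folds of 0.51, -0.31 and -1.45, and vps54 of GARP had 0.86, by the authors' deposited table. The table carries 2 rows for vps50 of EARP, which overlap on the same strand of chromosome 19 and start 40792651 and 40792659. The first had a log2 fold of 3.88 (level 3.38) (p = 0.0269, FDR p-value 0.655) and the second -2.40 at 1.99 (p = 0.0574) by the authors' deposited table. The first row ends at 40890239, while the second runs on to 41100695, so they share only part of the second. How reads of the shared part were divided is not given in the sources used here. With opposite signs in the 2 rows, no direction is given for vps50.

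The remaining 7 Vps genes ran from -0.77 to 0.96 on the log2 scale, each with an interval that included 0. vps45, which pairs with a SNARE of the Golgi and endosomes, had a log2 fold of 0.36 (level 15.0) by the authors' deposited table. Genes of the VPS13 lipid transfer proteins, vps13a, vps13c and vps13d, had -0.31, 0.05 and 0.96 at levels of 1.503, 0.564 and 0.772 by the authors' deposited table. vps33b, a relative of vps33a that works outside HOPS, had -0.77 at 2.78, and vps9d1 and vps72 had 0.68 and 0.43 by the authors' deposited table. On the other strand vps33b overlaps hddc3, which had 0.36 at a level of 23.7 by the authors' deposited table.

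Sorting nexins share a PX domain that binds phosphoinositides of endosomal membranes, and differ in what else they carry. Of the 34 genes, 22 were higher in mutant cells and 12 lower, with a median log2 fold of 0.27. Those with a BAR domain, which bends membranes, and no SH3 domain were higher in 9 of 9 cases, with a median of 0.25. Of all genes 51% were higher, and 62.3% of those of level 10 or more, whose median was 0.15. Among these BAR members the retromer-linked snx1a, snx5 and snx6 had only 0.05, 0.08 and 0.25, and snx2 had 1.59 (p = 0.0508), by the authors' deposited table. snx30, snx7 and snx4 had 0.23, 0.48 and 0.02 by the authors' deposited table. snx8b (chromosome 1, 11194759 to 11213620), of a family that acts between endosomes and the Golgi, had a log2 fold of 2.95 (level 5.19) (p = 0.0214, FDR p-value 0.637) by the authors' deposited table, and its copy snx8a had 1.67 at 1.63. The endocytic members with an SH3 domain were split, with snx9b at 1.05 (p = 0.0805) and snx18a at 0.73, and with snx18b, snx9a and snx33 at -0.06, -0.45 and -2.06 by the authors' deposited table; the lower ones had levels of 2.97 or less.

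Both copies of snx27 had higher values in mutant cells. SNX27 carries FERM and PDZ domains and recycles receptors to the cell surface together with retromer. snx27a (ENSDARG00000033804, chromosome 19, 8693914 to 8728969) had a log2 fold of 2.11 (level 11.1), with an unadjusted p of 0.0302 and an FDR p-value of 0.664, by the authors' deposited table. snx27b (ENSDARG00000016977, chromosome 16, 23580568 to 23609342) had 1.97 at a level of 16.1, with an unadjusted p of 0.0187 and an FDR p-value of 0.610, by the authors' deposited table. These are ratios of 4.30 and 3.91, and the implied standard errors were 0.97 and 0.84. The other FERM member, snx17, which recycles receptors with retriever, had -0.58 at a level of 5.76 (p = 0.467) by the authors' deposited table.

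The widest folds among sorting nexins belonged to genes whose products have a PX domain without BAR, FERM or PXA domains. snx11 (ENSDARG00000052522, chromosome 12, 20483317 to 20494286, minus strand) had a log2 fold of 3.34 (level 9.62) by the authors' deposited table, 10.1-fold higher in mutant cells. Its implied standard error was 0.99, its unadjusted p 8.02e-04, the smallest of the 80 genes, and its FDR p-value 0.198; 0.536% of all genes had a smaller p. SNX10 shares an extended PX domain with SNX11 and is known from osteoclasts, where the v-ATPase acidifies the bone surface. snx10a (chromosome 19, 18655472 to 18667599) had -3.51 at a level of 5.57 (p = 0.0135, FDR p-value 0.571), and snx10b (chromosome 16, 21227814 to 21232196) had 8.20 at a level of 0.499 (p = 0.0325, FDR p-value 0.672) by the authors' deposited table. The interval of snx10b ran from 0.68 to 15.7, so its size is almost undetermined. snx3, a cargo adaptor of retromer, and its close relative snx12 had 0.56 and -0.19 at levels of 71.4 and 31.6 by the authors' deposited table. The rest, snx15, snx16, snx20, snx21, snx22, snx24 and snx29, lay between -1.75 (snx24) and 2.73 (snx22) by the authors' deposited table, each with an interval that included 0. On the other strand snx16 overlaps rmdn1, which had 0.17 at a level of 43.1 by the authors' deposited table. snx24, at a level of 3.07, overlaps ggcx on the other strand, which had -1.08 at a level of 12.7 by the authors' deposited table. Members with a PXA domain, several of which sit at contacts of the endoplasmic reticulum, had 0.28 for snx14, -0.21 for snx25, 1.25 for snx19b, -0.92 for snx19a and 1.80 for snx13 by the authors' deposited table. snx25 lies 9.80 Mb from the row named rraga on chromosome 14.

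**Figure D3:**
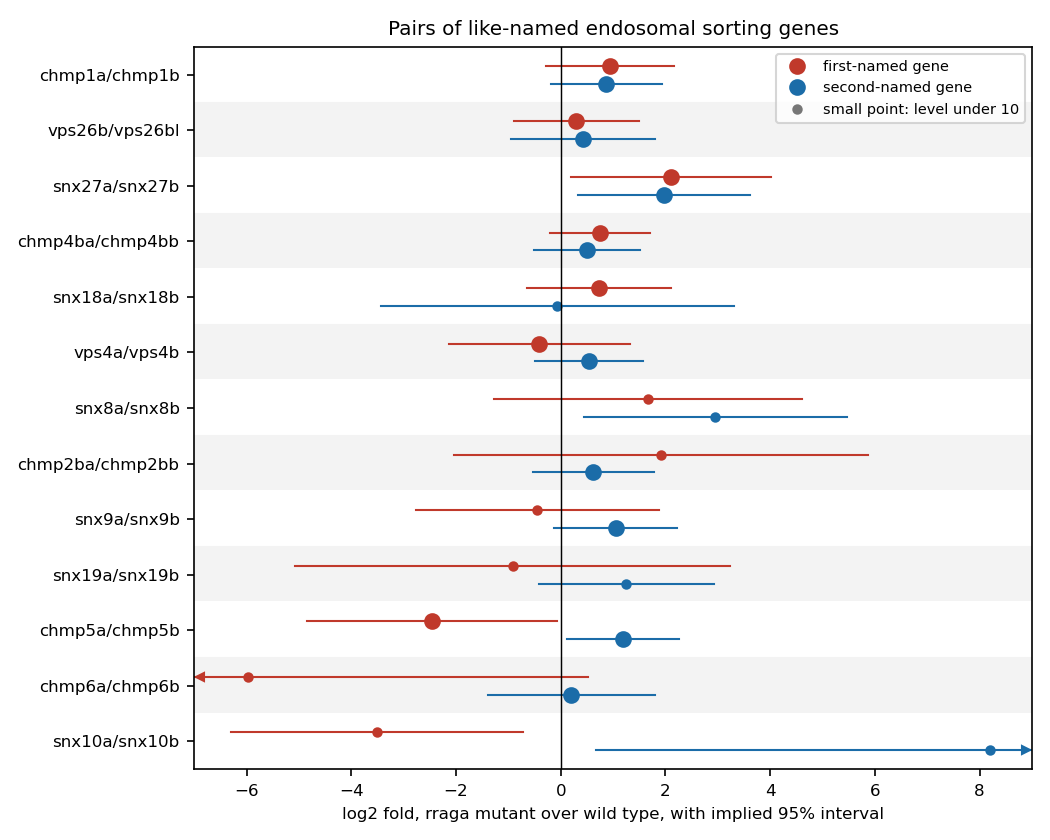
log2 fold of rraga mutant over wild type for 13 pairs of like-named genes, ordered from the smallest difference (top) to the largest, with 95% intervals derived from fold and p; small points mark levels under 10 and arrows intervals that run past the axis. chmp1a and chmp1b sit together at 0.94 and 0.87, and the intervals of chmp5a and chmp5b and of snx10a and snx10b do not overlap. Intervals of genes with opposite signs and p under 0.05 cannot overlap by construction.

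Several of these genes come in like-named pairs, which are either duplicates in fish or older paralogs such as vps4a with vps4b and chmp1a with chmp1b. Of 13 such pairs, 6 were higher in mutant cells in both genes, 0 were lower in both and 7 were split. As 68.8% of the 80 members were higher, the count of pairs higher in both does not show that paired genes moved together. Not counted as pairs were the overlapping vps50 rows, vps33a with vps33b, the vps37 genes, vps26a and chmp4c. Of these, vps33a and vps33b had opposite signs and the vps37 genes had both signs, so the counts hold for the 13 chosen pairs only. In the 6 pairs with both genes at level 10 or more, 4 had the same direction: chmp1a with chmp1b, chmp4ba with chmp4bb, snx27a with snx27b and vps26b with vps26bl. The split ones were vps4a with vps4b and chmp5a with chmp5b. Of the 40 members of level 10 or more, 33 were higher. The intervals failed to overlap in 2 of the 13 pairs, chmp5a with chmp5b and snx10a with snx10b. In both pairs the genes had opposite signs and each an unadjusted p under 0.05. Intervals built from such p cannot overlap, so this adds nothing to the p-values. No difference within a pair was tested.

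Partners of these complexes that carry other names were taken from 10 lists of 54 names, of which 48 were found as a single row. Of the others, rab7a matched 3 rows and was left out, and washc1, commd10, fig4a, fig4b and rab7b matched none. Of the 48, 39 were higher in mutant cells, or 81.2%, where 51% of all genes were and 62.3% of those of level 10 or more. Their median log2 fold was 0.47, and 0 had an authors' FDR p-value under 0.05. At an unadjusted p under 0.05, 3 were higher and 0 lower, or 6.25% in all, below the 9.66% of all genes. These were stam of ESCRT-0, which binds ubiquitin at the start of the pathway, at 1.103 (p = 0.0418), ist1, an ESCRT-III relative, at 1.08 (p = 0.0379), and ubap1la at 3.80 with a level of 2.64 (p = 0.0308), by the authors' deposited table. The other ESCRT-0 genes, hgs and stam2, had -0.62 and 0.07 by the authors' deposited table. The CCC complex, which works with retriever, was higher in all 11 genes found, with a median of 0.80 and a range of 0.24 (commd1) to 1.28 (commd3, p = 0.0648) by the authors' deposited table, and none passed the unadjusted threshold. ESCRT-III associated genes were higher in 4 of 4 cases (median 1.03) and the Rab5 genes of early endosomes in 4 of 4 (median 0.39). Those of the PIKfyve lipid kinase complex were higher in 2 of 2 (median 0.84), and tgfbrap1 of CORVET had 2.33 at a level of 2.17 (p = 0.102) by the authors' deposited table. Lists with medians near 0 were ESCRT-0 with 0.07 over 3 genes and the class III PI3-kinase with 0.04 over 5. The others were the WASH complex with 0.15 over 4 and cargo receptors with 0.08 over 5. Each of these lists held folds of both signs. In that order the folds ran from -0.62 to 1.103, from -0.63 to 0.24, from -0.52 to 0.59 and from -0.38 to 0.74. For the ESCRT-I and ESCRT-II subunits outside the name rule, 7 of 9 were higher, with a median of 0.40. The copies of the ubiquitin-binding subunit differed in sign. tsg101a had -0.81 at a level of 16.9 (p = 0.267) and tsg101b 0.63 at 2.63 (p = 0.609) by the authors' deposited table.

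Set beside neighbouring families of the same table, the endosomal sorting genes lay between the Rab GTPases and the v-ATPase. Among genes of level 10 or more the median log2 fold was 0.51 for the 40 endosomal sorting genes, 1.17 for 18 v-ATPase genes and 0.20 for 30 Rab genes, against 0.15 for all 5792 genes. That minimum acts on the higher genotype mean and is not independent of the fold. Without it the medians were 0.45, 1.17, 0.18 and 0.02 in the same order. The difference between these families was not tested, since genes of 1 comparison are not replicates.

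**Figure D4:**
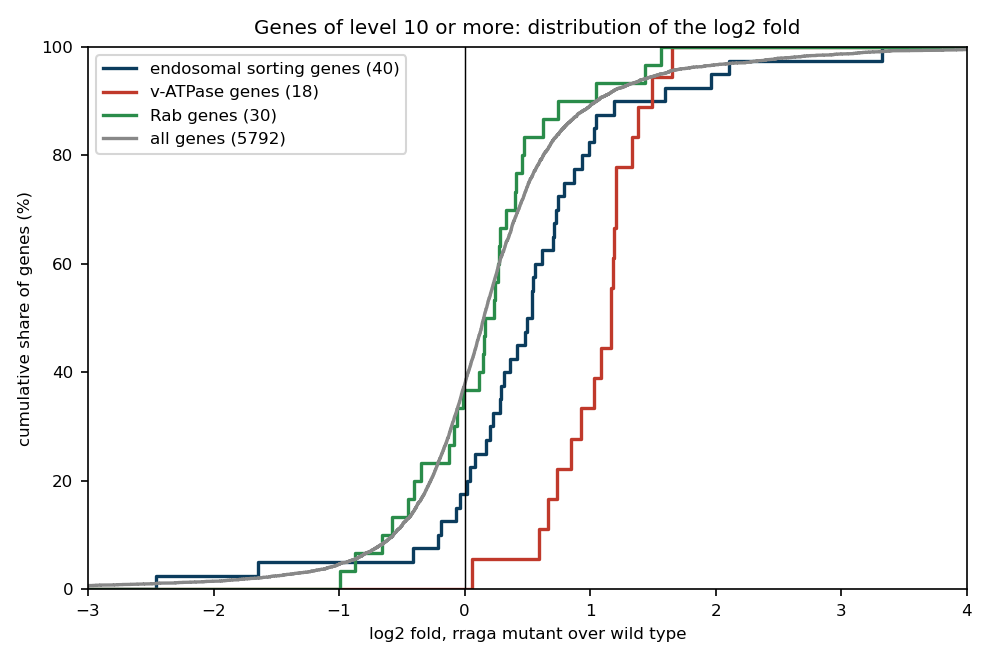
Cumulative share of genes (vertical axis, percent) up to each log2 fold of rraga mutant over wild type, for genes of level 10 or more: 40 endosomal sorting genes, 18 v-ATPase genes, 30 Rab genes and all 5792 genes; folds under -3 or over 4 are off the axis. The curve of the endosomal sorting genes crosses 50% near its median of 0.51, between those of all genes (0.15) and the v-ATPase (1.17).

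The sorted cells carried oligodendrocyte transcripts, with all 11 markers found at levels of 74.6 (sox10) to 5321 (mbpa) by the authors' deposited table. Of these markers 4 were higher in mutant cells and 7 lower, with a median log2 fold of -0.82. By the authors' FDR p-value hapln2 rose, with 3.17 (FDR p-value 0.0227), and mpz fell, with -2.96 (FDR p-value 2.34e-04), by the authors' deposited table. Pancreas and liver markers were present as well, with all 8 found at levels of 1527 (cpa5) to 23441 (apoa2) by the authors' deposited table; all 8 were lower in mutant cells, with a median of -0.61. Erythrocyte markers were higher in mutant cells in 5 of 5 cases, with a median of 1.30. Beside these counts, 51% of all genes were higher, and 62.3% of those of level 10 or more. Among 8 macrophage markers 5 were higher, with a median of 0.30. Their levels ran from 0.581 for csf1ra to 1413 for apoc1, and none had an authors' FDR p-value under 0.05. At an unadjusted p under 0.05, mfap4 had a log2 fold of 2.60 (p = 0.0019) and marco 3.68 (p = 0.0273) by the authors' deposited table. apoc1 and apoeb, with the highest levels of that list, had -0.26 and -0.15 by the authors' deposited table. Other lists also held markers with an unadjusted p under 0.05, where 9.66% of all genes had one. These were 4 oligodendrocyte (1 higher, 3 lower), 2 erythrocyte (both higher), 2 pancreas and liver (both lower) and 1 epidermal marker (higher). The neuronal, radial glial and muscle lists had 0. Medians were -0.23 for 6 neuronal, -0.61 for 4 radial glial, -0.78 for 5 muscle and 0.76 for 4 epidermal markers. Endosomal sorting genes are used by all of these cell types, and the part of other cells in the values above was not tested. The row named rraga had a log2 fold of 0.44 (p = 0.477) by the authors' deposited table. The reference symbol of its Ensembl identifier is RRAGB, so whether this row is the mutated gene is not settled here. Its value does not check the genotype labels, also because the allele may still be transcribed.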

How the data were processed

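RNA of sorted Cldnk:GFP cells was sequenced, and the build was GRCz11 per the submitters' processing notes. No aligner, counting tool, normalization or test is named in the labels or headers used here. Per the file headers, the authors deposited a signal per gene (the maximum group mean, here the level), a log2 fold change, a signed fold change (a score below 0 where lower in mutant), and p-values with FDR and Bonferroni adjustment. The direction rests on the table's title, mutant against control. Of 34326 rows, 8569 of level 0 hold a spreadsheet error and no fold. The deposited table has no counts, which leaves the depth unknown, and neither a counting interval nor a refit was made. With 1 merged record per genotype, it is not known whether the authors' p carries the spread between replicates.

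A gene was called at the authors' FDR p-value under 0.05. An implied standard error is the absolute log2 fold over the z value that matches the two-sided p. Complexes were assigned by gene name. Members with an unadjusted p under 0.05 are named with fold, level and p, and the 3 of highest level per complex or subfamily with at least their fold; other members were named after their values were seen. Members and lists were chosen with earlier results of these data known. Names listed outside the rule were matched by name or reference symbol. A planned promoter motif search was not run, as no promoter sequence was used here. Functions were tested on simulated data. Python 3.11.15, pandas 2.3.3, numpy 2.4.6 and scipy 1.17.1 were used.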

Additional observations from a re-analysis of the deposited data

How the results depend on the processing

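The count of endosomal sorting genes past the threshold was 0 under each of the 7 alternative rules tried: the authors' FDR p-value under 0.01, an added minimum of 1 for the absolute log2 fold, adjustment over genes of level 1 or more or of level 10 or more and 3 rules added once the data had been looked at, namely adjustment over genes that have a p, the authors' Bonferroni p-value, and members taken by reference symbol too. The smallest adjusted p came nearest with fewer genes tested, at 0.0883 for snx11 over genes of level 1 or more and 0.0726 for vps33a over genes of level 10 or more. These minimums act on the higher genotype mean, which for both genes was that of the mutant, so they are not independent of the fold. The 2 values therefore add no support for either gene. Subtracting the median log2 fold of genes of level 10 or more (0.15) changed the median log2 fold of all members to 0.30, of retromer to 0.27, of the sorting nexins to 0.11 and of GARP and EARP to -0.057, since the shift is taken from each gene. The medians of the ESCRT genes (0.36) and of HOPS and CORVET (0.87) moved by less than 1.5 times under it. This shift comes from genes of level 10 or more, and all genes under that level had a median log2 fold of -0.09. It is therefore not matched in level to members under level 10, which include all those of GARP and EARP. Limiting members to a level of at least 1 or 10 moved neither the median of all members nor that of any of these complexes by over 1.5 times. For all members only, settings added later gave 0.31 at a level of at least 30, 0.49 with 6 rows by reference symbol and 0.43 without the 19 members that overlap another gene. GARP and EARP had no member of level 10 or more. No paired analysis was possible because the table holds no value per replicate, and for the same reason no replicate could be left out.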

Other observations

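By the reference symbols of their Ensembl identifiers, 6 more rows of the table belong to these families under other names. bc2, with the symbol CHMP2A, an ESCRT-III subunit that caps filaments, had a log2 fold of 1.09 (level 124), with an unadjusted p of 0.0473 and an FDR p-value of 0.685, by the authors' deposited table. dscr3 (VPS26C) and zgc:163107 (VPS35L), subunits of retriever, had 0.88 and 0.30 at levels of 66.5 and 11.6 by the authors' deposited table. The ESCRT-I rows with the symbols vps37d and vps37bb had 1.004 and 2.29 at levels of 3.31 and 1.11, and a further VPS72 row had 0.01, by the authors' deposited table. All 6 were above 0 and 0 had an authors' FDR p-value under 0.05.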
